A study of Mus musculus with 4 samples.

Results

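The genes of protein folding, translocation and degradation in the endoplasmic reticulum were examined in C2C12 myoblasts, a murine satellite cell line, after exposure to palmitate, a saturated long-chain fatty acid. The 48 genes were taken from a list drawn up with earlier results of these data known, and every array probe whose RefSeq accession belongs to one of them was used. They were 48 of the 19751 genes named on the array, and comprised 5 sensors and regulators, 17 chaperones and folding enzymes, 14 genes of translocation, signal peptide removal and glycosylation, and 12 genes of endoplasmic reticulum-associated degradation. Palmitate-treated cultures received 0.1 mmol/l palmitate with albumin in 5% serum for 48 h. Control cultures received the same ethanol and fatty acid-free albumin without palmitate; their serum is given as 5% in the treatment protocol and as 10% HS in the sample label. RNA of 4 palmitate-treated and 4 control cultures was hybridised to 4 two-colour arrays, with 1 palmitate culture (cyanine-5) and 1 control culture (cyanine-3) on each. All cultures were of 1 cell line and the dyes were not exchanged, so an effect of palmitate and of dye on a probe cannot be told apart. If the control serum was that of the sample label, an effect of serum cannot be told apart from them either.

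Secreted and membrane proteins enter the endoplasmic reticulum through the Sec61 channel, lose their signal peptide and receive sugar chains while they are still being made. Chaperones such as BiP (the product of Hspa5) and protein disulphide isomerases then fold them, and proteins that fail to fold are pulled back to the cytosol and degraded. When unfolded proteins accumulate, the sensors Ire1 (Ern1), Atf6 and Perk start the unfolded protein response, in which Atf6 and spliced Xbp1 raise the transcription of chaperone and degradation genes.

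Myoblast identity was checked with markers. All 8 myoblast markers listed (Myod1, Myf5, Des, Cdh15, Vim, Pax7, Itga7 and Msc) were well above background on 4 of 4 arrays in palmitate-treated cultures, and 7 of 8 in control cultures. Their mean log2 ratios lay between -0.13 (Des) and 1.00 (Vim), and Vim, an intermediate filament gene, had a ratio of 1.22 with replicate 1 left out (adjusted p = 0.0015 from limma). Of 7 myotube markers on the array, 6 were above background on 4 arrays in palmitate-treated and control cultures alike, with mean log2 ratios of -0.079 to 0.32. Of 6 adipocyte markers, 4 (Adipoq, Cfd, Lep and Plin1) were not above background on any array, whereas Fabp4 was on 4 arrays in both channels. Kdr and Pecam1, of 4 endothelial markers, and Csf1r, of 3 macrophage markers on the array, were also above background on 4 arrays in both channels. The 2 endothelial and 2 macrophage markers that could be tested had ratios of -0.59 to -0.14 and -0.16 to -0.040. With replicate 1 left out, the endothelial marker Kdr had -1.12 (adjusted p = 0.0028 from limma), while a dimmer Kdr probe, not above background in control cultures, had 0.097, and the part of other cell types in the results below was not tested. RNA of whole cultures was measured, so fewer cells with a transcript and less of it per cell cannot be told apart.

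Every value below is a log2 ratio of palmitate over control after background correction and dye normalization, so 0 means equal signals and 1 means a doubling in palmitate-treated cells. Of the 48 genes, 47 could be tested, and the brightest tested probe of each was well above background in both channels on all 4 arrays. Dnajb11, a co-chaperone of BiP, did not pass the filter on dim probes. Replicate 1 stood apart from the other arrays. Across the 47 genes, which are not independent, its ratios correlated with those of the other 3 arrays at -0.35 to 0.022, whereas replicates 2 to 4 correlated with each other at 0.77 to 0.87. Over all probes these correlations were -0.16 to 0.057 and 0.68 to 0.77, so replicate 1 stood apart across the array. A probe for 28S ribosomal RNA (Rn28s1) had a ratio of 1.42 on replicate 1 and of -2.49, -2.14 and -3.36 on replicates 2 to 4. A probe for 4.5S RNA (Rn4.5s) had 1.10, 0.34, 0.56 and 0.0093, above 0 on each array. The part of either RNA in the results was not tested, and results are given with and without replicate 1. That array was set apart because of these same ratios, and leaving out the most discordant array tends to narrow the spread. Adjusted p-values without it are therefore optimistic and serve as description only. Without it 2116 probes were called higher and 2226 lower of 24178, against 0 and 0 with 4 arrays.

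A gene is called here where its adjusted limma p, over all probes tested, was below 0.05, and is termed nominally higher or lower where the unadjusted p was. With 4 arrays none of the 47 genes was called (adjusted p between 0.119 and 0.991), nor was any of all 13724 genes tested (0% higher and 0% lower). Nominally, 8 of the 47 genes (17%) were higher, against 10.8% of all genes, and 5 (10.6%) were lower, against 13.3%. The unpaired test named in the paper's methods called none of the 47 after adjustment, and 3 probes higher and 7 lower of all 24178. It was run on the values normalized here and without the methods' CV limit, so it does not repeat the paper's own analysis. With replicate 1 left out, 11 genes (23.4%) were called higher, against 8.71% of all genes, and 5 (10.6%) lower, against 9.82%. Those higher were Hspa5, Hsp90b1, Pdia3, Pdia4, Txndc5, Manf, Atf6b, Ssr2, Ssr3, Edem1 and Vcp, and those lower were Sec61g, Dad1, Ssr4, Herpud1 and Nploc4. Nominally, 15 genes (31.9%) were then higher, against 17.7% of all genes, and 9 (19.1%) lower, against 18.2%, so the share of lower genes lay near that of all genes. None was called with replicate 2, 3 or 4 left out. Among probes below the methods' CV limit, 3 of 43 members were called higher, against 3.52% of 8429 genes, and 1 lower, against 5.36%. An exact sign-flip test over 4 arrays cannot go below a two-sided p of 0.125.

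The chaperones had the highest median of the 4 groups. Chaperones and folding enzymes had a median ratio of 0.23 (16 genes), sensors 0.060 (5 genes), translocation genes -0.015 (14 genes) and degradation genes -0.032 (12 genes), while the median of all genes was 0.0014. On replicates 1 to 4 the chaperone median was -0.076, 0.38, 0.46 and 0.20, so it lay above 0 on 3 arrays and below it on replicate 1. Without replicate 1 the medians were 0.29 for chaperones, 0.12 for sensors, 0.033 for translocation and -0.11 for degradation. Among the chaperones 9 of 16 (56.3%) were above 0 on each of replicates 2 to 4, and 1 (6.25%) below it on each, against 30.9% and 30.2% of all genes. The members were selected with results known, so these are descriptions without a test.

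**Figure D1:**
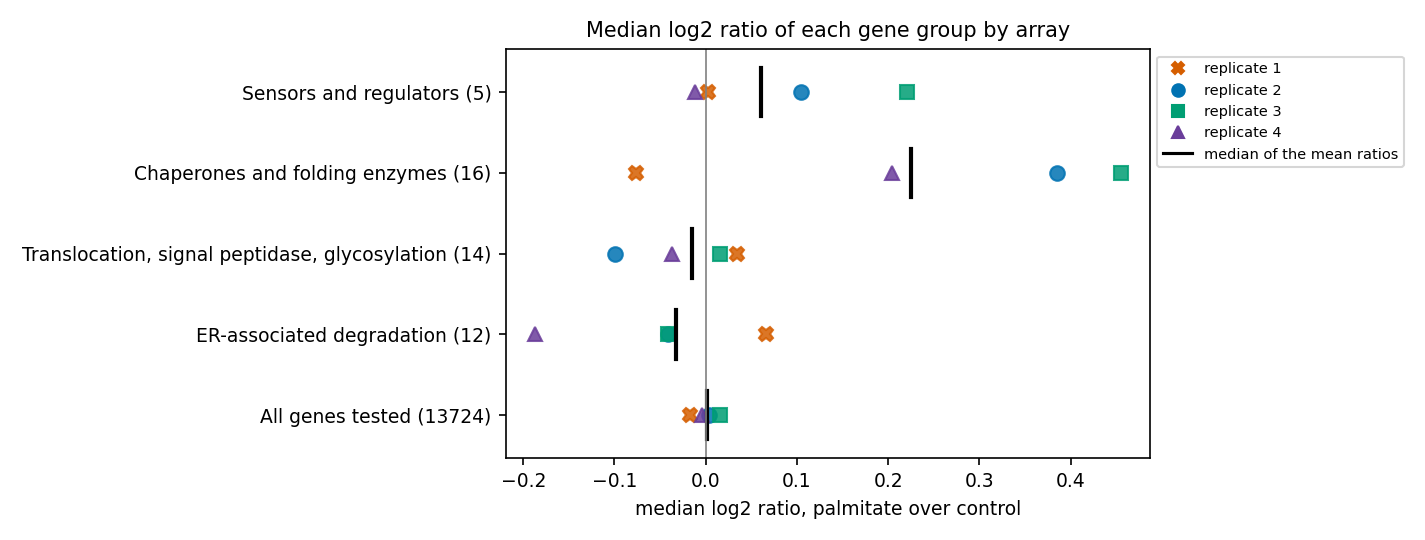
Median palmitate-to-control log2 ratio (x axis) of the 4 groups of endoplasmic reticulum genes and of all genes tested (y axis, number of genes in brackets). Symbols are the medians on each of the 4 arrays and black bars the median of the mean ratios, which is 0.23 for chaperones and 0.0014 for all genes.

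Promoters of the chaperone and degradation genes are known for the endoplasmic reticulum stress element (ERSE), which is bound by Atf6 with NF-Y. A higher share of ERSE among the members than among all genes was therefore foreseeable and is no result of these arrays. Promoter sequences (RefSeq, GRCm38.p6, 250 bases before to 50 after the start) were found for 38 of the 48 genes and for 27025 genes in all. The letters CCAAT followed after 9 bases by CCACG, searched on both strands, occurred in 8 of these 38 genes (21.1%), against 0.137% of all genes and 0.119% of all 32851 promoters: Hspa5, Hsp90b1, Calr, Canx, Creld2, Dnajc3, Pdia6 and Syvn1. A shorter form, ERSE-II (ATTGG followed after 1 base by CCACG), occurred in Herpud1 and Dnajb11 and in 0.0365% of all promoters. The Xbp1-binding motif UPRE (TGACGTGG) occurred in Txndc5 and Vcp and in 0.676% of all promoters; read on the opposite strand it begins with CCACG, as the other motifs end. The promoters of 4 genes are shown because they carry an element while their mRNA ratios lay on opposite sides of 0, with the fixed letters of ERSE or ERSE-II in capitals. Hspa5 and Hsp90b1 had mean ratios above 0 and Syvn1 and Herpud1 below it.
Hspa5 (chr2:34771840-34772139, + strand): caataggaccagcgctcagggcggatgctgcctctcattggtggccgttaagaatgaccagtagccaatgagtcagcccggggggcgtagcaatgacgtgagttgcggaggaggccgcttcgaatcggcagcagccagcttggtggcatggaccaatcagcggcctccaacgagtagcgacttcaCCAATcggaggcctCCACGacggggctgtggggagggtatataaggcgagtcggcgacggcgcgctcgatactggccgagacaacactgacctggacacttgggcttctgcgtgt
Hsp90b1 (chr10:86705395-86705694, - strand): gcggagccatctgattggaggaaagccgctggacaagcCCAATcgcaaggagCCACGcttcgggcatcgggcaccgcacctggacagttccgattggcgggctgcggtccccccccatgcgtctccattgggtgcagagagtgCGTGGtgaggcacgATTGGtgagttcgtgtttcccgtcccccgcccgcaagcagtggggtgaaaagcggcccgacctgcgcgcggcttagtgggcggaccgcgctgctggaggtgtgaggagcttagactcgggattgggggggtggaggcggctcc
Syvn1 (chr19:6046326-6046625, + strand): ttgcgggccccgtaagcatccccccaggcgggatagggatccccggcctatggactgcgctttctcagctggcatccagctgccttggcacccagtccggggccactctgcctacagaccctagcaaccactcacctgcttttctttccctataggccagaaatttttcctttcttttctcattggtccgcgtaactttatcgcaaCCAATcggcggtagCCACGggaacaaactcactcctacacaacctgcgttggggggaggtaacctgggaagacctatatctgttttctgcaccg
Herpud1 (chr8:94386179-94386478, + strand): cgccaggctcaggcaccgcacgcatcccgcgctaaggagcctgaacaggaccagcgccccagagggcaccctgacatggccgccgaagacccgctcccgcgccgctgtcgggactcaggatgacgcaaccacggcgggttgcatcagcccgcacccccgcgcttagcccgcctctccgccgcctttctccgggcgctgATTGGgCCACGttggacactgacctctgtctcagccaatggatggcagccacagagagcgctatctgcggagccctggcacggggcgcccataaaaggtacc

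The 8 genes with ERSE had mean ratios between -0.57 (Syvn1) and 0.73 (Hspa5), with a median of 0.19. Of them 5 of 8 were above 0, against 6887 of all 13724 genes. The 29 tested genes with a promoter but without ERSE had a median of 0.060 and ranged from -0.97 to 0.73. With replicate 1 left out the medians were 0.19 with ERSE and 0.11 without, while 8.71% of all genes were called higher and 9.82% lower. Of the 8 genes with ERSE 2 were then called, both higher, against 7 higher and 5 lower of the 29 without. Pdia4, with a ratio close to that of Hspa5, was among those without any of the 3 motifs. Of the genes with ERSE, Syvn1, Creld2 (-0.0093) and Pdia6 (-0.045) had means below 0, and a dimmer Pdia6 probe had a mean of 0.33. No promoter was found for Manf, so it could not be searched. Outside the members, 9 genes with ERSE were tested, with a median of 0.10 and 6 above 0. Without replicate 1, 1 of these 9 was called higher and 0 lower. Only exact letters were searched, and a part of ERSE in the ratios was not tested.

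Among the sensors and regulators, no gene was nominally higher or lower with 4 arrays. Ern1, the kinase and nuclease that splices Xbp1 mRNA, had ratios of 0.0021, -0.12, -0.17 and -0.012 on replicates 1 to 4, so all arrays lay close to 0 (mean -0.074 ± 0.083, SD, n = 4). Xbp1, the transcription factor made from the spliced mRNA, had -0.13, 0.10, 0.30 and -0.038, with a mean of 0.060 ± 0.19 (SD, n = 4). Its arrays fell on both sides of 0, and whether its probe tells the spliced from the unspliced form was not examined. Atf6, the membrane-bound transcription factor that is released by cleavage, had 0.12, 0.47, 0.22 and 0.061 and was above 0 on 4 of 4 arrays, with a mean of 0.22 ± 0.18 (SD, n = 4, adjusted p = 0.249 from limma). Its relative Atf6b had -0.44, 0.40, 0.51 and 0.21 (mean 0.17 ± 0.42, SD, n = 4), and only replicate 1 was below 0. Its mean without that array was 0.37 (adjusted p = 0.043 from limma). Wfs1, a membrane protein of the endoplasmic reticulum that holds Atf6 in check, had 0.0091, -0.50, -0.11 and -0.24 (mean -0.21 ± 0.22, SD, n = 4), below 0 on all arrays but replicate 1.

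The chaperone Hspa5 (BiP) had the highest mean of all 47 genes. Its processed signals from the scanner software were 58622, 91936, 67967 and 101992 in palmitate-treated cultures, against 49935, 58118, 38964 and 54284 in control cultures on replicates 1 to 4. The signal of the palmitate-treated culture was the brighter on each array. Its ratios were 0.32, 0.76, 0.88 and 0.98, a mean of 0.73 ± 0.29 (SD, n = 4) or 1.66-fold (adjusted p = 0.119 from limma, and 0.0037 with replicate 1 left out). When the pairing by array was left out it was the only one of the 47 genes called (adjusted p = 0.0498 from limma). In that setting 33 probes were called higher and 37 lower of 24178.

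Hsp90b1, the Hsp90 of the endoplasmic reticulum (Grp94), had processed signals of 34171, 85855, 78135 and 119279 in palmitate-treated cultures, against 48104, 59030, 38101 and 51417 in control cultures. On replicate 1 the palmitate culture was the dimmer, and on the other 3 arrays the brighter. The ratios were -0.45, 0.62, 1.06 and 1.30, with a mean of 0.63 ± 0.78 (SD, n = 4, adjusted p = 0.246 from limma). Pdia4, a protein disulphide isomerase, had ratios of -0.097, 1.44, 0.64 and 0.92 and a mean of 0.73 ± 0.64 (SD, n = 4, adjusted p = 0.161 from limma). Manf, a secreted stress-responsive factor that binds BiP, had -0.071, 0.81, 0.82 and 0.96 and a mean of 0.63 ± 0.47 (SD, n = 4, adjusted p = 0.139 from limma). These 3 genes shared the same arrangement, with replicate 1 below 0 and the others well above it. Over those 3 arrays alone, the mean was 0.99 for Hsp90b1 (adjusted p = 0.0071 from limma), 1.00 for Pdia4 (0.0094) and 0.86 for Manf (0.0034).

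The other folding genes lay nearer to 0. Pdia3 and Calr, which act on glycoproteins, Hyou1, a nucleotide exchange factor of BiP, P4hb, the founding disulphide isomerase, Txndc5, Dnajc3, Canx, Dnajb9 and Sdf2l1 had means between 0.085 and 0.26. Pdia3 had ratios of -0.29, 0.61, 0.48 and 0.26 and was called with replicate 1 left out (adjusted p = 0.028 from limma), as was Txndc5 (0.044), with -0.22, 0.53, 0.26 and 0.31. Both genes were below 0 on replicate 1 alone. Dnajb9, an inhibitor of Ire1 and a known target of Xbp1, had 0.45, 0.10, 0.031 and -0.10 from its brightest probe and -0.27, 0.40, 0.29 and 0.082 from another, which was above background on 3 of 4 control arrays, and these disagreed most on replicate 1. Sdf2l1, which works with BiP, had -0.15, 0.36, 0.28 and -0.15. Creld2, another stress-induced gene, had -0.081, -0.065, 0.033 and 0.076, the mean nearest to 0 in the group (-0.0093). Lowest were Sil1, a nucleotide exchange factor of BiP, with -0.025, -0.32, -0.044 and -0.073, and Pdia6, with -0.41, -0.26, 0.13 and 0.37. Sil1 was below 0 on 4 of 4 arrays, mostly by little. A dimmer probe of Pdia6 had 0.22, 0.33, 0.50 and 0.26 and was above 0 on all 4 arrays, so the direction of this gene depends on the probe. That dimmer probe had 0.36 with replicate 1 left out (adjusted p = 0.041 from limma).

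**Figure D2:**
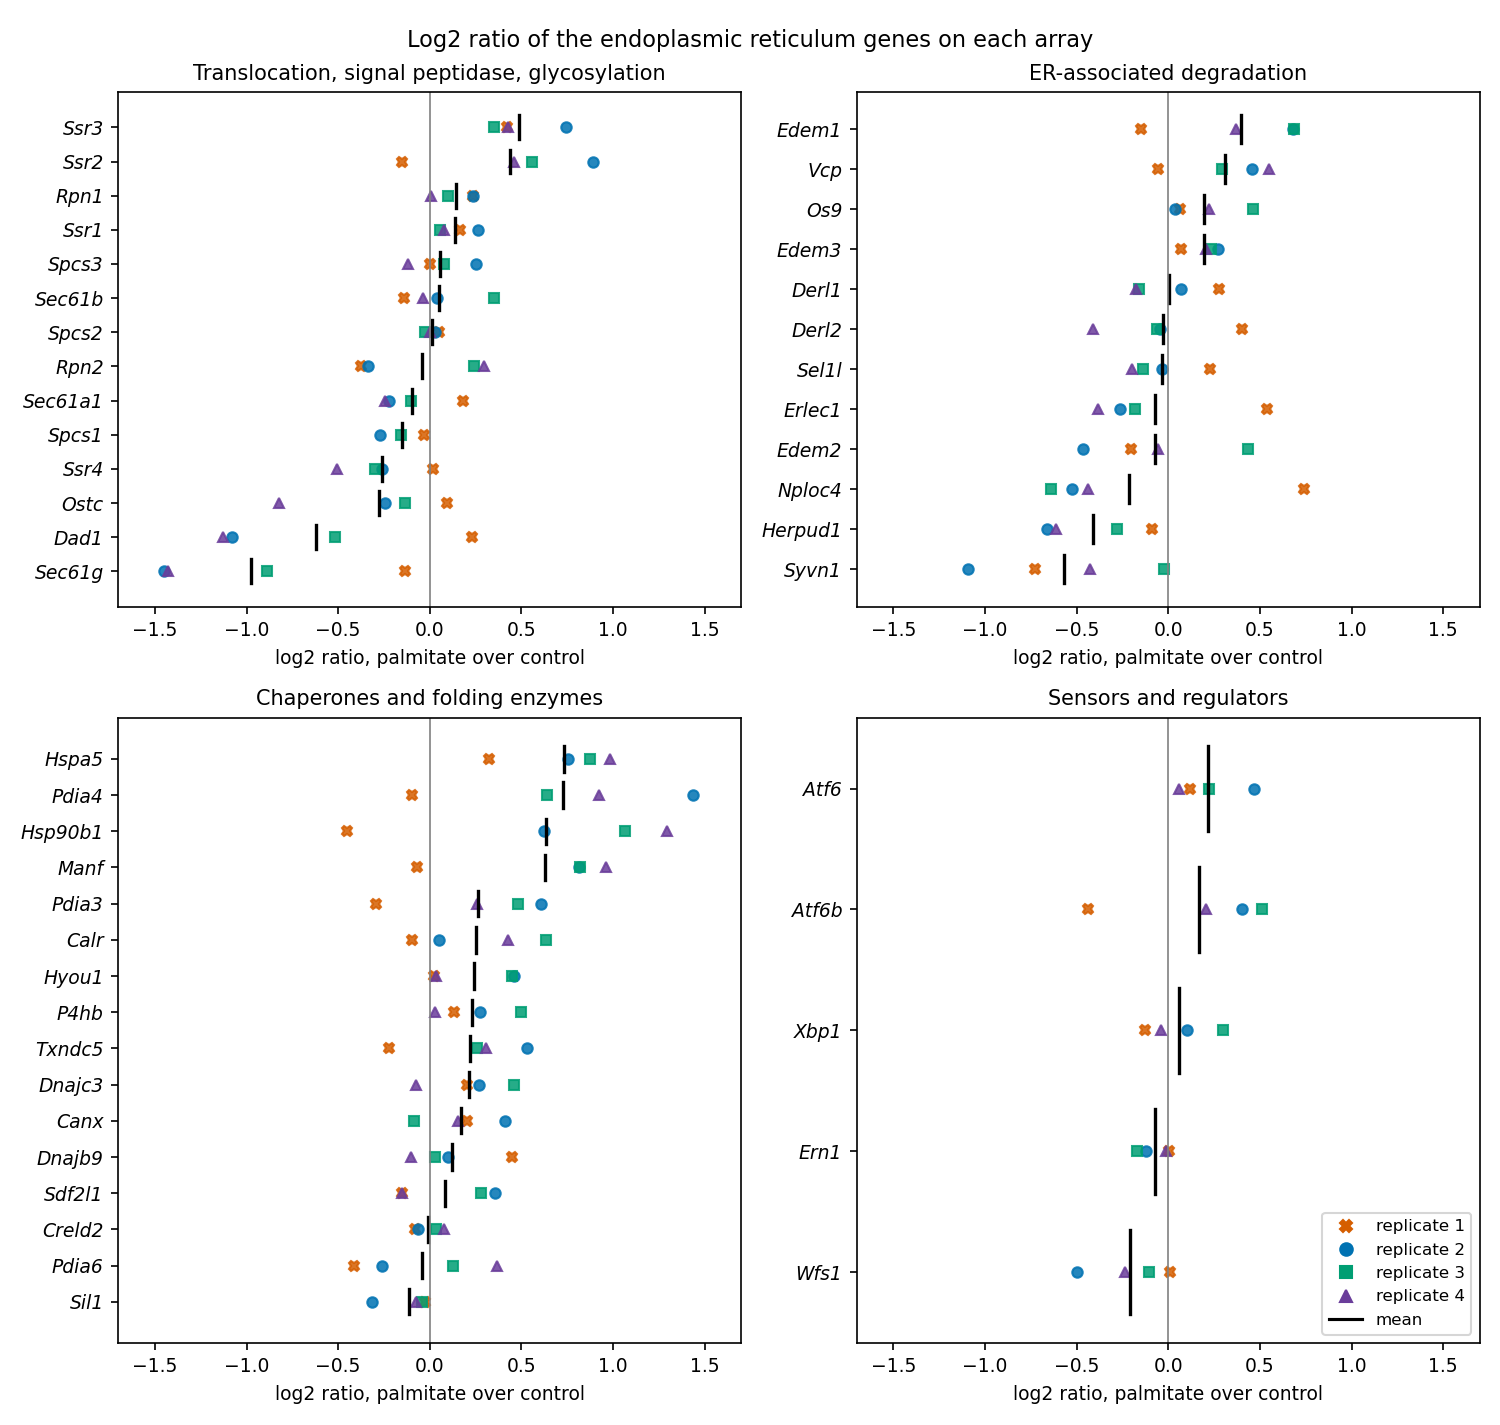
Palmitate-to-control log2 ratio (x axis) of the brightest tested probe of each of the 47 genes (y axis) in the 4 groups. Symbols are the 4 arrays and black bars the means. Hspa5 lies above 0 on 4 of 4 arrays with a mean of 0.73, whereas Sec61g lies below 0 on 4 of 4 with a mean of -0.97.

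Translocation genes lay on both sides of 0. Sec61g, the gamma subunit of the Sec61 channel, had the lowest mean of the 47 genes. Its processed signals were 19297, 13352, 13762 and 13135 in palmitate-treated cultures, against 20617, 34537, 24452 and 35190 in control cultures, with ratios of -0.14, -1.45, -0.89 and -1.43. The signal was lower with palmitate on 4 of 4 arrays, least so on replicate 1, and the mean was -0.97 ± 0.62 (SD, n = 4, adjusted p = 0.123 from limma, and 0.0035 with replicate 1 left out). Sec61a1, which forms the channel itself, had a mean of -0.097 ± 0.20 (SD, n = 4). The remaining subunit, Sec61b, was read by 2 probes that disagreed. The brighter had -0.14, 0.039, 0.35 and -0.037, a mean of 0.052 ± 0.21 (SD, n = 4), whereas the dimmer had 0.040, -1.77, -1.24 and -1.08, a mean of -1.01 ± 0.76 (SD, n = 4). The dimmer probe thus resembled Sec61g on replicates 2 to 4 while the brighter lay near 0. With replicate 1 left out the dimmer had -1.36 (adjusted p = 0.0034 from limma) and the brighter 0.12 (0.482).

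The translocon-associated protein complex, which helps proteins with weak signal sequences to enter, was split among its 4 subunits. Ssr3 had ratios of 0.42, 0.74, 0.35 and 0.43, above 0 on 4 of 4 arrays, with a mean of 0.49 ± 0.17 (SD, n = 4, adjusted p = 0.119 from limma). A dimmer probe of Ssr3 had 0.20, -0.16, -0.0062 and -0.32, so the higher value rests on the brighter probe. Ssr2 had -0.15, 0.89, 0.56 and 0.46, with a mean of 0.44 ± 0.43 (SD, n = 4). It was below 0 on replicate 1 alone. Ssr1 had a mean of 0.14 ± 0.094 (SD, n = 4), with 0.19 and -0.075 from its dimmer probes. Ssr4 had 0.016, -0.26, -0.30 and -0.50, a mean of -0.26 ± 0.21 (SD, n = 4). With replicate 1 left out, limma gave an adjusted p of 0.023 for Ssr3, 0.013 for Ssr2 and 0.044 for Ssr4, of which the last was the lower with palmitate.

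The 3 members from signal peptidase, which cuts off the signal peptide, were read near 0 by their brightest probes. The brightest probes of Spcs1, Spcs2 and Spcs3 had means of -0.15, 0.014 and 0.054; for Spcs1 the spot on replicate 4 was an outlier and its value rests on 3 arrays. A dimmer probe of Spcs3 had 0.084, -0.17, -0.58 and -0.25 (mean -0.23 ± 0.27, SD, n = 4), opposite in sign to the brightest. A dimmer probe of Spcs2 had 0.90, -0.024, -0.11 and -0.0083, apart from 0 on replicate 1 alone. The signal peptidase genes Sec11a and Sec11c, from the wider translocation list below, had means of 0.21 ± 0.21 and 0.29 ± 0.32 (SD, n = 4). Both were above 0 on replicates 2 to 4, and neither was called with replicate 1 left out. A dimmer Sec11a probe had a mean of 0.35, and 0.50 with replicate 1 left out (adjusted p = 0.039 from limma).

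Of the oligosaccharyltransferase, which transfers the sugar chain, 4 subunits were members. Dad1 had processed signals of 8733, 5358, 6044 and 4670 in palmitate-treated cultures, against 7337, 10947, 8204 and 10336 in control cultures. It was brighter with palmitate on replicate 1 and dimmer on the other 3 arrays, with ratios of 0.23, -1.08, -0.52 and -1.13 and a mean of -0.62 ± 0.63 (SD, n = 4, adjusted p = 0.195 from limma, and 0.0090 with replicate 1 left out). Ostc had 0.095, -0.24, -0.14 and -0.82 and a mean of -0.28 ± 0.39 (SD, n = 4). Rpn1 and Rpn2, the large subunits known as ribophorins, had means of 0.14 ± 0.11 (SD, n = 4) and -0.044 ± 0.36 (SD, n = 4). Rpn1 was above 0 on all 4 arrays, at 0.24, 0.24, 0.099 and 0.0047.

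The other subunits were read from a wider list of 29 translocation and glycosylation genes, all tested. Of these, 6 (20.7%) were nominally higher, against 10.8% of all genes, and 6 (20.7%) lower, against 13.3%. None was called, and the median was 0.15. Without replicate 1 the median was 0.20, with 7 (24.1%) called higher, against 8.71% of all genes, and 6 (20.7%) lower, against 9.82%. The small membrane subunits of the oligosaccharyltransferase Tmem258, Ost4 and Krtcap2 had means of -0.80 ± 0.79 (SD, n = 4), -0.72 ± 0.54 (SD, n = 4) and -0.68 ± 0.57 (SD, n = 4), each above 0 on replicate 1 and between -1.43 and -0.71 on the other arrays. The catalytic subunit Stt3b had 0.43, 0.84, 0.68 and 0.40, above 0 on 4 of 4 arrays (mean 0.59 ± 0.21, SD, n = 4), and the other catalytic subunit, Stt3a, had -0.43, 0.88, 0.51 and 0.58. On replicates 2 to 4 Dad1, Ostc, Tmem258, Ost4 and Krtcap2 were thus below 0 and Stt3a and Stt3b above it within the same enzyme, a split noticed after the values were seen. The other subunits in that list were Ddost (-0.29 ± 0.22, SD, n = 4), Tusc3 (0.32 ± 0.36, SD, n = 4) and Magt1 (-0.052 ± 0.15, SD, n = 4), with means between those of Tmem258 and Stt3b. Sec63, which couples the channel to BiP, had 0.21, 1.28, 0.92 and 0.76 (mean 0.79 ± 0.45, SD, n = 4), the highest of that list, but a dimmer probe had -0.38, -0.11, 0.17 and -0.0085. On the other 3 arrays alone, limma gave an adjusted p of 0.0060 for Tmem258, 0.0036 for Ost4, 0.0048 for Krtcap2, 0.011 for Stt3a, 0.013 for Stt3b and 0.0051 for the brighter Sec63 probe.

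**Figure D3:**
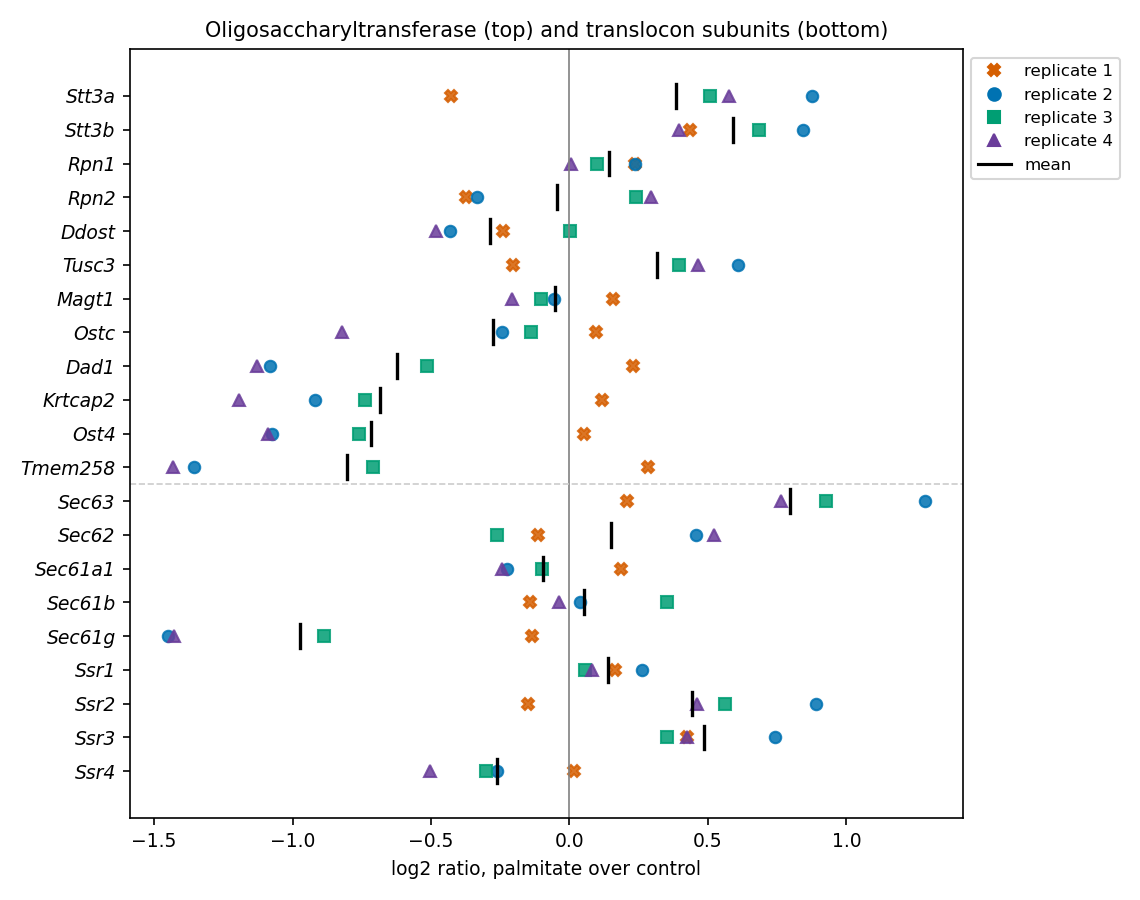
Palmitate-to-control log2 ratio (x axis) of the subunits of the oligosaccharyltransferase and of the Sec61 channel and its partners on the 4 arrays, for the brightest tested probe of each gene (y axis). Black bars are means, which run from -0.80 for Tmem258 to 0.59 for Stt3b in the enzyme and from -0.97 for Sec61g to 0.79 for Sec63 at the channel.

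In the degradation group, the ubiquitin ligase Syvn1 (Hrd1) and its adaptor Herpud1 had the lowest means. Syvn1 had processed signals of 7377, 7472, 13032 and 12187 in palmitate-treated cultures, against 12028, 15353, 12739 and 15763 in control cultures. Its ratios were -0.73, -1.09, -0.021 and -0.43, below 0 on 4 of 4 arrays though close to 0 on replicate 3, where the processed signal was slightly the brighter with palmitate, with a mean of -0.57 ± 0.46 (SD, n = 4, adjusted p = 0.150 from limma). It was not called with replicate 1 left out either (0.104). Herpud1, which is stress-induced, had -0.092, -0.66, -0.28 and -0.61, below 0 on 4 of 4 arrays, with a mean of -0.41 ± 0.27 (SD, n = 4, adjusted p = 0.141 from limma, and 0.021 with replicate 1 left out). Sel1l, the scaffold of the ligase, had a mean of -0.035 ± 0.19 (SD, n = 4).

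Edem1, which acts on the sugars of misfolded glycoproteins, had -0.15, 0.68, 0.69 and 0.37, above 0 on replicates 2 to 4 (mean 0.40 ± 0.39, SD, n = 4, adjusted p = 0.208 from limma). Its relatives Edem3 and Edem2 had means of 0.19 ± 0.086 (SD, n = 4) and -0.072 ± 0.38 (SD, n = 4). Edem3 was above 0 on 4 of 4 arrays, at 0.071, 0.27, 0.23 and 0.20. The lectin Os9 had 0.062, 0.039, 0.46 and 0.22, also above 0 on each array, whereas the lectin Erlec1 had 0.54, -0.26, -0.18 and -0.38 and was above 0 on replicate 1 alone. Derl1 and Derl2, membrane proteins of the exit channel, had means of 0.0022 and -0.030 for their brightest probes, although a dimmer probe of Derl1 had 0.36, 0.73, 0.66 and 0.24. That Derl1 probe had 0.54 with replicate 1 left out (adjusted p = 0.024 from limma). The dimmer probes of Derl2 had means of 0.19 and -0.034. Vcp, the ATPase that pulls substrates into the cytosol, had -0.057, 0.46, 0.30 and 0.55 (mean 0.31 ± 0.27, SD, n = 4). Its cofactor Nploc4 had 0.74, -0.53, -0.64 and -0.44, so replicate 1 lay far above the others and no array lay at the mean of -0.22 ± 0.64 (SD, n = 4). With replicate 1 left out, limma gave an adjusted p of 0.014 for Edem1, 0.025 for Vcp and 0.012 for Nploc4, with Edem1 and Vcp above 0 and Nploc4 below it.

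**Figure D4:**
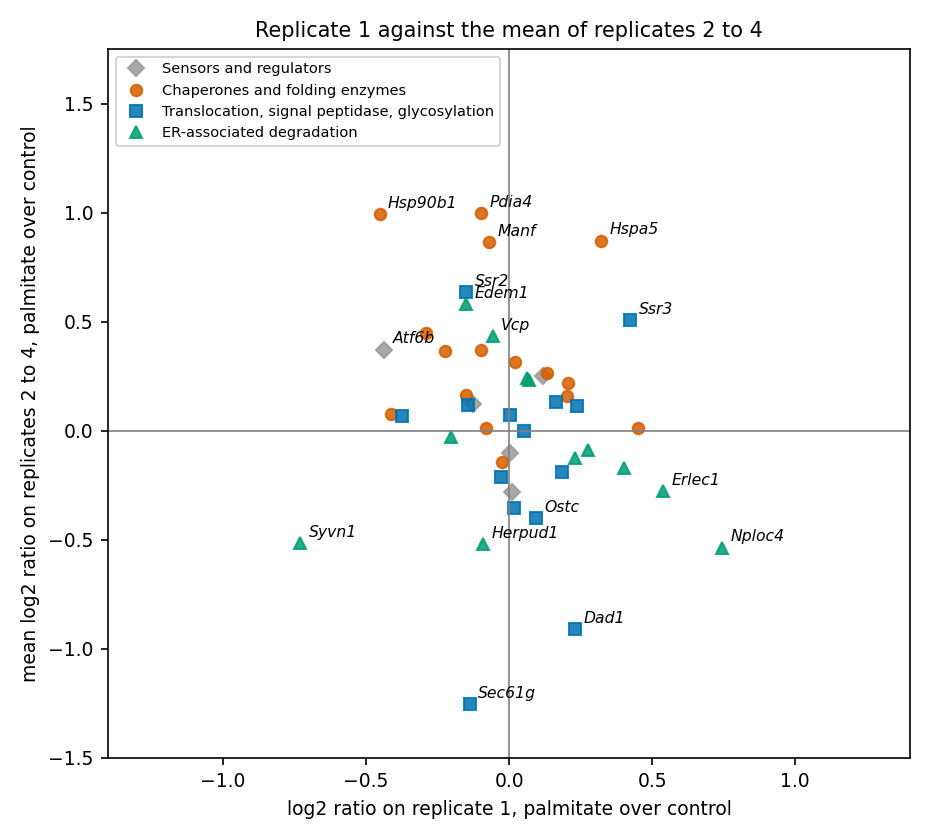
Palmitate-to-control log2 ratio on replicate 1 (x axis) against the mean on replicates 2 to 4 (y axis) for the 47 genes, with the 4 groups as symbols. Hspa5 and Ssr3 lie above 0 on both axes, Syvn1 and Herpud1 below 0 on both, and Nploc4 and Dad1 change side.

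Other genes of the same pathways were counted from lists. Of 36 further folding genes 35 were tested, with 5 (14.3%) nominally higher, 5 (14.3%) lower and a median of 0.048. These shares lay near the 10.8% and 13.3% of all genes. Without replicate 1, 3 (8.57%) were called higher and 3 (8.57%) lower, against 8.71% and 9.82%. The highest were Tmx1, a membrane-bound disulphide isomerase (0.52 ± 0.24, SD, n = 4), and Ero1b, an oxidase of these isomerases (0.45 ± 0.39, SD, n = 4). The lowest were Mogs, the glucosidase that starts sugar trimming (-0.50 ± 0.25, SD, n = 4), and Qsox1, a sulfhydryl oxidase (-0.36 ± 0.26, SD, n = 4). Of 33 further degradation genes 31 were tested, with 6 (19.4%) nominally higher and 2 (6.45%) lower, against 10.8% and 13.3% of all genes, and a median of 0.030. Without replicate 1, 6 (19.4%) were called higher and 1 (3.23%) lower, against 8.71% and 9.82%. Dnajb12, a membrane co-chaperone (0.46 ± 0.23, SD, n = 4), and Marchf6, a ubiquitin ligase (0.42 ± 0.29, SD, n = 4), were highest. Aup1, a membrane protein that recruits a ubiquitin-conjugating enzyme (-0.34 ± 0.39, SD, n = 4), and Tmub1, a membrane protein with a ubiquitin-like domain (-0.31 ± 0.14, SD, n = 4), were lowest. None of these genes was called with 4 arrays. Those named that were called without replicate 1 were Tmx1 (adjusted p = 0.013 from limma), Ero1b (0.019), Mogs (0.019), Dnajb12 (0.013), Marchf6 (0.028) and Tmub1 (0.028), each on the side of 0 given above.

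A mixed list of 19 stress signalling genes, all tested, held the Perk arm and others such as Mbtps1, Mbtps2, Traf2, Rtcb and Creb3. Of these 19, 0 (0%) were nominally higher, against 10.8% of all genes, 3 (15.8%) were lower, against 13.3%, and none was called. The lower genes were Ppp1r15a, Nupr1 and Mbtps1. Mbtps1 was below 0 on 4 of 4 arrays (mean -0.33 ± 0.16, SD, n = 4), and its dimmer probe had a mean of 0.011. Without replicate 1, 0 were called higher and 2 (10.5%) lower, against 8.71% and 9.82% of all genes, namely Nupr1 (adjusted p = 0.037 from limma) and Ppp1r15a (0.045). Eif2ak3 (Perk) had a mean of 0.14 ± 0.20 (SD, n = 4), and its downstream transcription factors Atf4 and Ddit3 (Chop) had -0.0076 ± 0.40 (SD, n = 4) and 0.0098 ± 0.24 (SD, n = 4), with arrays on both sides of 0; these 3 genes were picked with their values known. A dimmer probe of Atf4 had -0.52, -0.73, -0.038 and -0.30, below 0 on 4 of 4 arrays. Ppp1r15a (Gadd34), which reverses the translational block, had -0.67, -0.79, -0.51 and -0.16 and was below 0 on 4 of 4 arrays, replicate 1 included (mean -0.53 ± 0.27, SD, n = 4, adjusted p = 0.120 from limma). Nupr1, a stress-induced chromatin protein, had -0.83, -0.50, -0.38 and -0.25 (mean -0.49 ± 0.25, SD, n = 4, adjusted p = 0.123 from limma). Highest were Trib3, a pseudokinase (0.19 ± 0.29, SD, n = 4), and Atf3, a transcription factor (0.18 ± 0.24, SD, n = 4).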

How the data were processed

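Two-colour Agilent mouse arrays were read by the authors with Agilent Feature Extraction 10.7.3.1. Uncorrected intensity values were deposited as medians of each spot and its background. Their deposited processed signals are intensity values from which the software had subtracted background and balanced the dyes. The deposited table holds log2 ratios of the processed signals (palmitate over control), equal to within 3.0e-06.

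From the median signals, normexp (offset 50) corrected the background and loess within arrays the dyes, in limma 3.58.1 (R 4.3.3). Outlier spots were left out and spots of a probe averaged. The 24178 of 39429 probes that exceeded background clearly in 1 channel or both on every array were tested. The mean log2 ratio was tested against 0 with limma's moderated test and Benjamini-Hochberg adjustment over all these probes. Cultures were paired by their array. RefSeq accessions named 26055 probes, and a gene is represented by its brightest tested probe. All arrays were on 1 slide, and 57.6 to 70.7% of probes exceeded background per channel; the number of arrays limits the precision. The labels call the cultures biological replicates.

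The members and lists were chosen with earlier results of these data known. Values on every array are given for Hspa5, Xbp1, Ern1 and Atf6, the 3 highest and 3 lowest genes of each group and genes whose probes differ in sign by over 0.5. The 2 highest and 2 lowest genes of each wider list are named. Further genes and probes were picked once values had been seen. The procedure was tested on simulated data. Alternatives changed the background correction, dye normalization, filters, test, pairing, variance model, probe choice and replicates.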

Additional observations from a re-analysis of the deposited data

Results flagged for a closer look

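In each of 46 genes with 4 values and 5 group medians, the array farthest from the others was examined for a gap larger than Dixon's 95% critical value, which chance exceeds in about 1 in 20 such sets. Manf had a log2 ratio of -0.071 on replicate 1, against 0.81 to 0.96 on the other arrays. Nploc4 had 0.74 on replicate 1, against -0.64 to -0.44 on the others. Sil1 had -0.32 on replicate 2, against -0.073 to -0.025 on the others.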

How the results depend on the processing

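None of the 47 genes passed an adjusted p of 0.05 with 4 arrays. With 1 replicate left out in turn, 0 to 11 passed as higher and 0 to 5 as lower, the highest counts without replicate 1. Nominally, at an unadjusted p below 0.05, 2 to 15 were then higher and 1 to 9 lower. Over all 24178 probes these nominal counts ran from 1103 to 4200 and from 1292 to 4109. Among probes below the methods' CV limit, a filter that selects probes by their spread on the same arrays, 3 passed as higher (Hspa5, Manf and Ssr3) and 1 as lower (Sec61g) of 43. Without the pairing (no replicate block), 1 passed as higher (Hspa5), against 33 higher and 37 lower of 24178 probes. The unpaired t-test gave 3 nominally lower genes, against 2346 of 24178 probes. With arrays centred on their medians, which put the median of all genes at 0.20, 5 genes were nominally higher and 0 lower. Of 24178 probes, 790 were then nominally higher and 43 lower. The medians were 0.39 for all 47 genes, 0.38 for sensors, 0.52 for chaperones, 0.34 for translocation and 0.26 for degradation. With no dye normalization, where the median of all genes was 1.01, 43 genes were higher by the adjusted p, against 20314 of 24178 probes. Nominally 43 were higher and 0 lower, against 20974 and 28 probes, so most probes were higher in that setting. The medians were 1.20, 1.19, 1.33, 1.12 and 1.07 in the same order. There 15 genes whose mean was below 0 passed as higher, with 0.96 for Ern1, 0.90 for Wfs1, 1.18 for Pdia6, 1.02 for Sil1, 1.15 for Creld2, 1.10 for Sec61a1, 0.88 for Ssr4, 1.05 for Spcs1, 0.84 for Ostc, 1.12 for Rpn2, 1.06 for Sel1l, 1.07 for Derl2, 0.95 for Edem2, 1.03 for Erlec1 and 0.90 for Nploc4. Relative to all genes, the chaperone median stayed above 0 in both (0.32 each), whereas those of translocation (0.14 and 0.11) and degradation (0.059 each) turned to above 0. Hspa5, Hsp90b1, Pdia4 and Manf remained above, and Sec61g, Dad1, Herpud1 and Syvn1 below, the median of all genes in both. With the mean of all tested probes of a gene, the translocation median was -0.092. Of the 9 genes with several tested probes, 6 had probes with means of both signs. With 1 replicate left out the medians lay between 0.046 and 0.11 for the 47 genes, -0.020 and 0.12 for sensors, 0.16 and 0.29 for chaperones, -0.071 and 0.033 for translocation, and -0.11 and 0.047 for degradation. Causes were not tested.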
